A study of Rattus norvegicus with 9 samples.

Results

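In the tissue, horizontal basal cells are a quiescent stem cell population at the base of the olfactory epithelium. Genes of TGF-beta and activin signalling were followed in such cells of the rat in culture, where quiescence was not tested, with or without a phorbol ester. They were chosen by symbol from a list of 10 genes, of which 9 stood among the 17315 genes of the count tables: the ligand genes Tgfb1, Tgfb2, Tgfb3 and Inhba, the receptor genes Tgfbr1 and Tgfbr2, the signal transducer Smad3, its inhibitory relative Smad7, and the nuclear corepressor Tgif1. The expression of the tenth, Skil, was not analysed here. The cells came from olfactory epithelium of SD rats, were grown as a primary culture and stood at passage 7 in all 9 libraries. Of these libraries, 3 came from cells in vehicle (0.1% DMSO, labelled time 0), 3 from cells after 6 h in 50 nM phorbol 12-myristate 13-acetate (PMA), which activates protein kinase C, and 3 from cells after 12 h in PMA. The series is described as comparing stages of activation of these cells. No vehicle library was labelled with 6 h or 12 h, so PMA and time in culture cannot be told apart. Separate cultures or animals are not named for the 3 libraries within a group, and p-values therefore measure the spread among these libraries alone, which may be technical.

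TGF-beta ligands are made as latent precursors, and once released they bind the type II receptor Tgfbr2, which then activates the type I receptor Tgfbr1. Activin A is a dimer of the chain that Inhba encodes and signals through its own pair of receptor types. Both routes lead to phosphorylation of Smad2 and Smad3, which enter the nucleus with Smad4, while Smad7 blocks the receptors and is itself induced by the pathway. In epithelia TGF-beta is best known for arresting the cell cycle and for acting on matrix and cell adhesion.

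Promoter sequences of 9 of the 10 listed genes were found in the RefSeq table for GRCr8, a newer rat assembly than the rn6 assembly behind the counts. Each covers 250 bases before and 50 bases from the transcript start. The promoters of Inhba and Smad7 are shown because these members had the largest rises, and capitals mark exact matches to the motifs searched on both strands.
Inhba (chr17:53804459-53804758, minus strand): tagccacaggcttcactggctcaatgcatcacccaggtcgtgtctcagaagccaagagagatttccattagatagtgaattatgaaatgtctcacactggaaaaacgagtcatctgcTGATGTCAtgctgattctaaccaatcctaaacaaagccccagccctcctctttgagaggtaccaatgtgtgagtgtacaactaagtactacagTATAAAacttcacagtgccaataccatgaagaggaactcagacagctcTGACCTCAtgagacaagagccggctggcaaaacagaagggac
Smad7 (chr18:71263258-71263557, plus strand): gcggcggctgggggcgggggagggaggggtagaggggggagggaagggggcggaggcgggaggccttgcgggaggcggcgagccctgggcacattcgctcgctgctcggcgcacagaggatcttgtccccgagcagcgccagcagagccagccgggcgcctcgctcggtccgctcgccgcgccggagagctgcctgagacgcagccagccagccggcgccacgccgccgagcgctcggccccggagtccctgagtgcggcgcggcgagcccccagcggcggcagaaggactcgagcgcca

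These promoters were unlike in base composition, with 45.7% G and C in Inhba and 77.7% in Smad7, against a median of 51.7% over all promoters of the table. Inhba held the TATA box letters TATAAA 40 bases before the start (14.2% of 33365 promoters hold them). It also held TGANGTCA, the cyclic AMP response element with 1 free base, 133 bases before the start and again 8 bases after it on the other strand (10.1% of promoters). Both of these motifs were chosen after the sequences had been read. Neither promoter held the palindromic Smad binding element GTCTAGAC (0.198% of promoters), the AP-1 site TGANTCA (7.34%) or the full cyclic AMP response element TGACGTCA (1.83%), which TGANGTCA includes. Among the 9 promoters, that of Skil held TGACGTCA, and in 0 of 9 was the Smad element or the AP-1 site found. These letters describe the windows only and say nothing of what binds there.

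Levels are given in CPM, the usual depth-corrected read count, from library totals scaled by TMM, a factor that equalises the bulk of genes between libraries. They compare libraries for 1 gene and are not corrected for gene length, so they do not rank genes. Depth was 13601635 to 19001819 gene reads per library. The TMM factors were 1.28 to 1.31 in vehicle and 0.848 to 0.911 after PMA, so a change against vehicle rests in part on this scaling. Replicates differed by more than counting error, with a chi-square per degree of freedom of 3.88 to 27.8. Of 9 markers fixed for horizontal basal cells, among them Krt5, Krt14 and Tp63, all had reads in every group. At 6 h 8 were lower and 1, Icam1, was higher (log2 fold change 0.30). At 12 h 7 were lower and 2, Icam1 (1.33) and Egfr (0.64), were higher. Their summed level was 15788 to 18678 CPM in vehicle, 2837 to 3520 CPM at 6 h and 4432 to 5122 CPM at 12 h. Most of the vehicle sum was Krt5 (6827 CPM) and Krt14 (5325 CPM).

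Of the 8 members abundant enough to be tested, 7 were higher and 1 was lower after 6 h of PMA (edgeR's quasi-likelihood F test, Benjamini-Hochberg adjusted over 10128 genes, adjusted p under 0.05). All adjusted p-values below come from that test unless another is named. The background was high, since 76.8% of all tested genes passed at 6 h, 37.8% as higher and 39.0% as lower. After 12 h the same 7 members were higher and Tgfbr2 lower than in vehicle, when 75.8% of all genes passed, 37.7% as higher and 38.2% as lower. Between 6 h and 12 h a further 7 of 8 calls were made, 4 higher and 3 lower, against a background of 51.1%, with 25.3% higher and 25.8% lower. A change of at least 2-fold was called in 6 members at 6 h and 4 at 12 h, against 39.4% and 38.4% of all genes. The libraries of all 8 members were separate from vehicle at both times, as were those of 79.0% of all genes at 6 h and 78.7% at 12 h; from 6 h to 12 h those of 7 members and 58.0% of all genes were. The split of all genes moved with the scaling: with upper-quartile scaling 3023 genes were higher and 4837 lower at 6 h, against 3831 and 3945 with TMM, and 2963 were higher and 4827 lower at 12 h, against 3818 and 3864. The median log2 fold change of the 8 was 1.21 at 6 h and 1.33 at 12 h, while that of all genes was -0.03 and -0.02. Both comparisons with vehicle share the same 3 vehicle libraries.

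**Figure D1:**
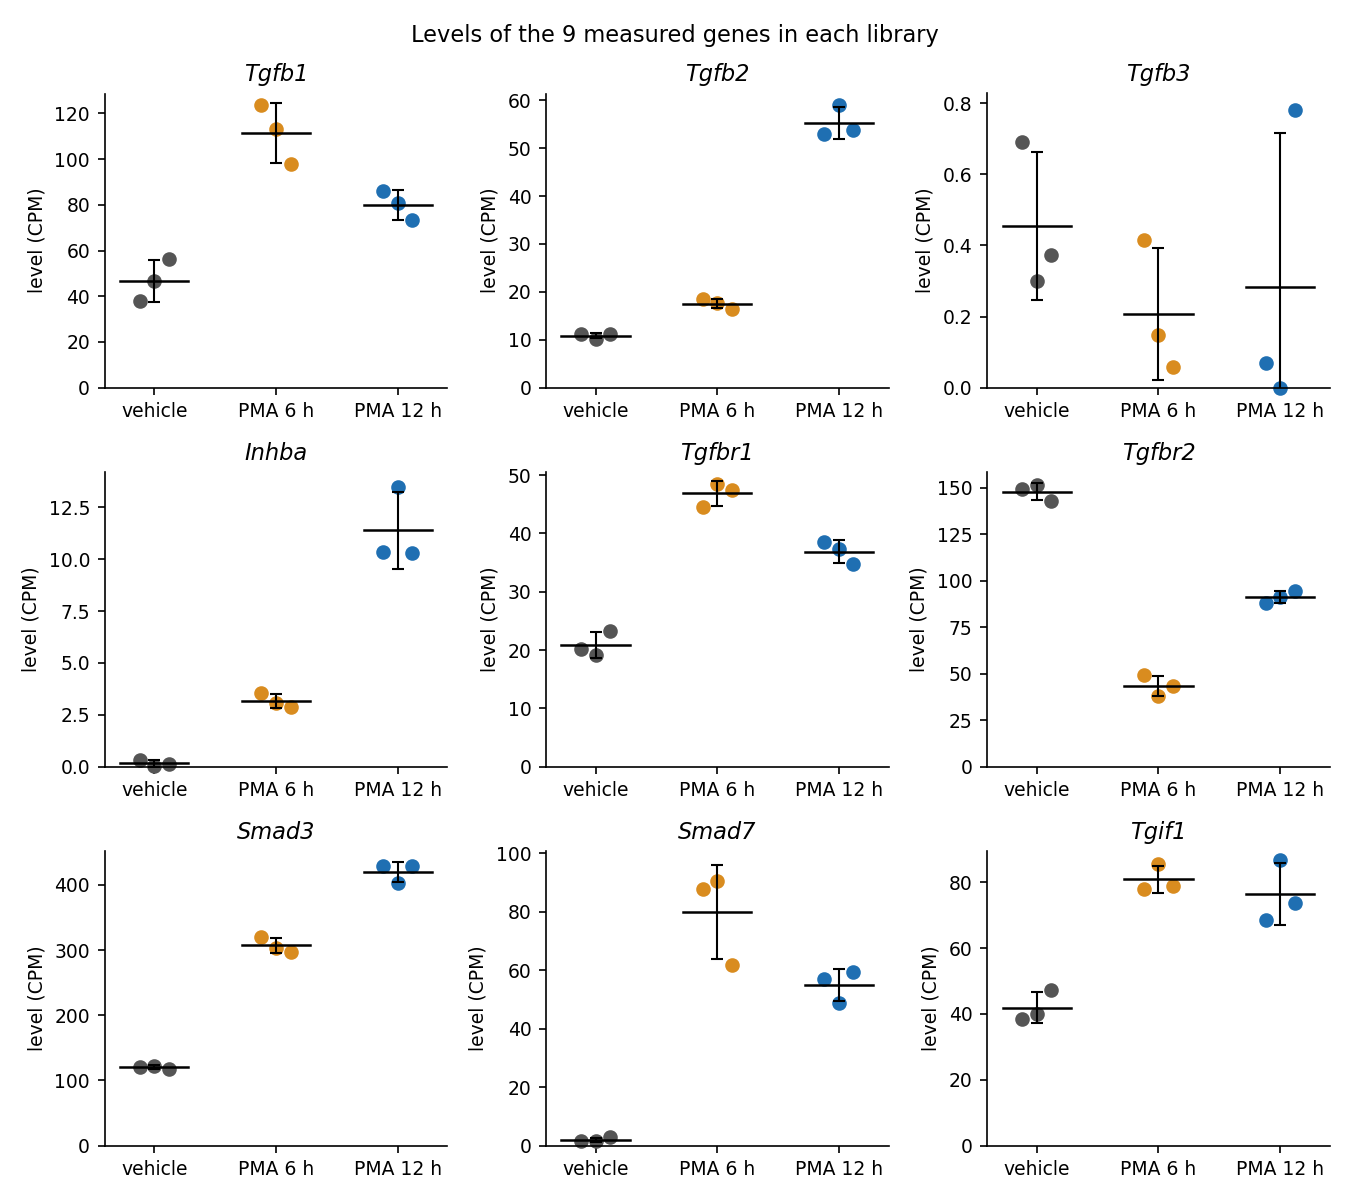
Level of each of the 9 measured genes in CPM (vertical axis, from 0, a scale of its own in each panel) in the 3 libraries of each group (points), with the group mean and SD (bars). Tgfb1, Tgfbr1 and Smad7 stood highest at 6 h, Tgfb2, Inhba and Smad3 at 12 h, and Tgfbr2 in vehicle, while Tgfb3 stayed under 1 CPM.

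The ligand genes followed different courses. Tgfb1, the most widely expressed of the 3 TGF-beta ligands in most tissues, stood at 37.9, 46.5 and 56.2 CPM in the vehicle libraries, at 123, 113 and 97.8 CPM after 6 h and at 86.1, 80.6 and 73.3 CPM after 12 h. The 3 groups did not overlap, and the 12 h libraries lay between the others. Tgfb1 rose by a log2 fold change of 1.25 ± 0.13 (SE) at 6 h (adjusted p = 3.2e-07) and stood 0.77 ± 0.13 above vehicle at 12 h (adjusted p = 5.7e-05). From 6 h to 12 h it fell (-0.48 ± 0.13, adjusted p = 0.0055). Without any normalization beyond library totals the 12 h value was 0.20 and no longer passed.

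Tgfb2, a ligand that needs a co-receptor for tight binding to Tgfbr2, went the other way between the time points. Its levels were 11.3, 10.2 and 11.2 CPM in vehicle, 18.5, 17.7 and 16.5 CPM after 6 h, and 52.9, 59.0 and 53.8 CPM after 12 h. The groups were again separate, here in the order of time. The rise was 0.69 ± 0.11 at 6 h (adjusted p = 2.9e-05) and 2.34 ± 0.11 at 12 h (adjusted p = 3.9e-12), and most of it came after 6 h (1.65 ± 0.11 from 6 h to 12 h, adjusted p = 3.5e-09). The 6 h call of Tgfb2 was lost without normalization (0.15).

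Tgfb3, the ligand best known from palate development, was near the limit of detection. It had 16, 7 and 7 reads in the vehicle libraries, 6, 2 and 1 after 6 h, and 1, 0 and 9 after 12 h, and it was too low for the main test. The group means were 0.454 ± 0.208, 0.207 ± 0.186 and 0.283 ± 0.432 CPM (SD, n = 3), and the groups overlapped. The library without a read allows up to 0.218 CPM (3 reads, counting error only). With no filter on low counts, edgeR gave -1.16 ± 1.02 at 6 h (adjusted p = 0.33) and -0.78 ± 1.01 at 12 h (adjusted p = 0.52), so no difference was detectable at this depth.

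Inhba, which encodes the chain of activin A, went from a few reads to a clear signal. The vehicle libraries held 8, 1 and 2 reads (0.345, 0.043 and 0.106 CPM). After 6 h the levels were 3.53, 3.08 and 2.89 CPM, and after 12 h they were 10.3, 13.5 and 10.3 CPM. Every PMA library was above every vehicle library, and every 12 h library above every 6 h library. The log2 fold change was 4.17 ± 0.43 at 6 h (18.1-fold, adjusted p = 8.6e-08) and 6.02 ± 0.40 at 12 h (65.0-fold, adjusted p = 2.7e-10), with a further 1.85 ± 0.28 between both times (adjusted p = 3.3e-05). The size against vehicle depended on single libraries. With 1 library left out it was between 3.70 and 5.32 at 6 h and between 5.55 and 7.17 at 12 h. The highest value at each time came without vehicle replicate 1.

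The 2 receptor genes moved in opposite directions. Tgfbr1, the type I receptor that phosphorylates Smad2 and Smad3, stood at 20.2, 19.1 and 23.3 CPM in vehicle, 44.6, 48.6 and 47.5 CPM after 6 h, and 38.6, 37.4 and 34.7 CPM after 12 h. The 6 h libraries were the highest and no groups overlapped. Tgfbr1 rose by 1.17 ± 0.11 at 6 h (adjusted p = 1.8e-08), stood at 0.82 ± 0.11 at 12 h (adjusted p = 1.7e-06) and fell between them (-0.34 ± 0.10, adjusted p = 0.01). Its 12 h call was lost without normalization (0.24).

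Tgfbr2, the type II receptor that binds the ligand, was the only member of the 8 tested that fell. Its levels were 150, 151 and 143 CPM in vehicle, 49.0, 38.1 and 43.5 CPM after 6 h, and 88.2, 91.4 and 94.6 CPM after 12 h. All 6 PMA libraries lay below all vehicle libraries, with the lowest values at 6 h. The log2 fold change was -1.76 ± 0.09 at 6 h (3.39-fold lower, adjusted p = 7.7e-12) and -0.70 ± 0.09 at 12 h (1.62-fold lower, adjusted p = 1.1e-06). From 6 h to 12 h the transcript rose again by 1.07 ± 0.09 (adjusted p = 5.7e-08). In these bulk libraries, fewer cells with a transcript and less of it per cell cannot be told apart.

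Smad3 and Smad7, which act against each other, both rose but on different courses. Smad3, which carries the signal to the nucleus, stood at 121, 123 and 118 CPM in vehicle, 320, 304 and 298 CPM after 6 h, and 429, 402 and 429 CPM after 12 h. The groups were separate and rose in the order of time. The increase was 1.35 ± 0.07 at 6 h (adjusted p = 7.5e-12) and 1.80 ± 0.07 at 12 h (adjusted p = 2e-13), with 0.45 ± 0.07 of it between 6 h and 12 h (adjusted p = 2.7e-05).

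Smad7, the inhibitory Smad, had the largest 6 h rise of the 8 tested members. It stood at 1.73, 1.59 and 2.87 CPM in vehicle, 87.6, 90.5 and 61.6 CPM after 6 h, and 56.9, 48.8 and 59.2 CPM after 12 h. The lowest 6 h library, replicate 3, lay just above the highest 12 h library. The log2 fold change was 5.30 ± 0.21 at 6 h (39.3-fold, adjusted p = 3.6e-11) and 4.76 ± 0.21 at 12 h (27.1-fold, adjusted p = 1.3e-10). The fall from 6 h to 12 h (-0.54 ± 0.16, adjusted p = 0.012) passed with all libraries, but the call was lost without PMA 6 h replicate 1 (-0.47), PMA 6 h replicate 2 (-0.44) or PMA 12 h replicate 2 (-0.46).

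Tgif1, a homeodomain corepressor that binds Smad2 and Smad3 in the nucleus, rose early, with no later change that passed the test. Its levels were 38.5, 40.1 and 47.2 CPM in vehicle, 78.0, 85.6 and 78.9 CPM after 6 h, and 68.5, 86.9 and 73.8 CPM after 12 h. The rise was 0.95 ± 0.10 at 6 h (adjusted p = 2e-07) and 0.87 ± 0.10 at 12 h (adjusted p = 7e-07). The 6 h and 12 h libraries overlapped, and their difference did not pass (-0.08 ± 0.10, adjusted p = 0.53). In the newer annotation a long non-coding gene overlaps Tgif1, and counts without strand cannot part reads of both. A small nucleolar RNA gene overlaps Tgfb2 in the same way.

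**Figure D2:**
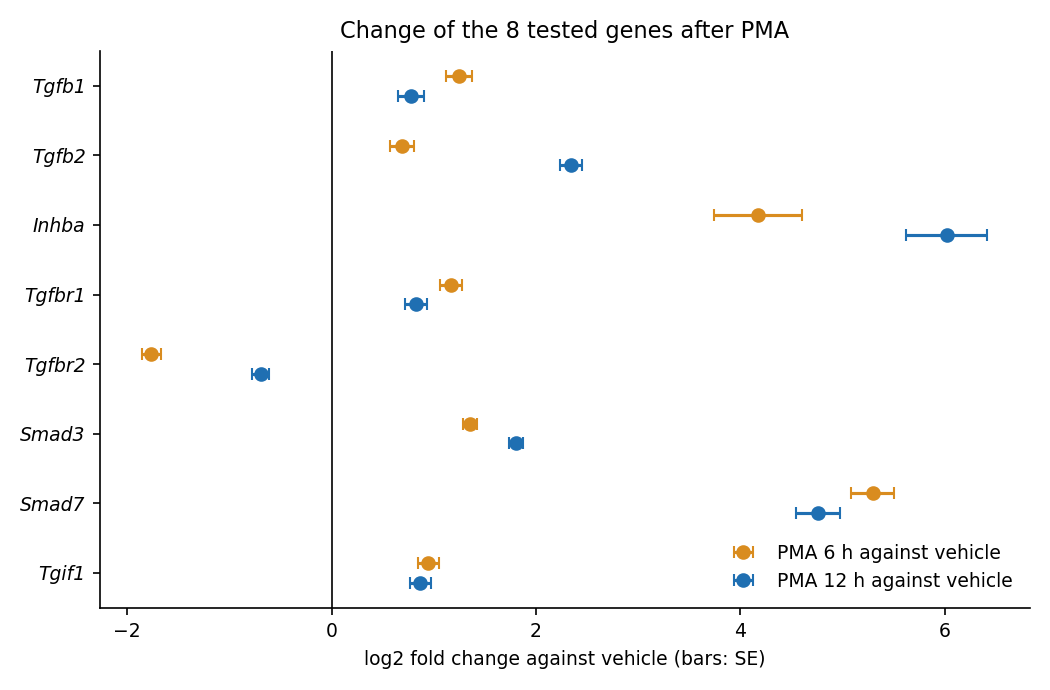
Log2 fold change against vehicle (horizontal axis) of the 8 tested genes after 6 h and 12 h of PMA, with bars for the SE. Tgfbr2 lies left of 0 at both times, Inhba and Tgfb2 lie further right at 12 h than at 6 h, and Smad7 lies at 5.30 and 4.76.

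Because most genes passed the test, the members were also tested against a change of 1.5-fold, an alternative added after the data had been seen. At 6 h 7 of 8 members passed, with Tgfb2 short of it (adjusted p = 0.13), when 48.0% of all genes passed. At 12 h 6 of 8 passed against 46.7% of all genes: Tgfb2, Inhba, Tgfbr1, Smad3, Smad7 and Tgif1. The difference from 6 h to 12 h exceeded 1.5-fold in 3 members, Tgfb2 (adjusted p = 2.4e-07), Inhba (adjusted p = 7.5e-04) and Tgfbr2 (adjusted p = 1.2e-04), while 12.5% of all genes did.

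The balance between members was read from the ratio of their reads within a library, which does not depend on library scaling. Only its change between groups is meaningful, since the ratio itself also depends on gene length, and these ratios were given no test. Tgfb1 had 3.36 to 5.01 reads for each read of Tgfb2 in vehicle and 5.93 to 6.69 after 6 h, but 1.36 to 1.63 after 12 h. The 12 h ratios lay below all others, and the mean change against vehicle was -1.56 on the log2 scale at 12 h and 0.57 at 6 h. Without vehicle replicate 1 the 6 h change was 0.40.

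Between the receptor genes the ratio moved one way at both times. Tgfbr1 had 0.126 to 0.163 reads per read of Tgfbr2 in vehicle, 0.908 to 1.27 after 6 h and 0.367 to 0.438 after 12 h, a mean log2 change of 2.94 at 6 h and 1.52 at 12 h. Smad7 had 0.0130 to 0.0244 reads per read of Smad3 in vehicle, 0.207 to 0.298 after 6 h and 0.121 to 0.138 after 12 h. For all 3 pairs the groups did not overlap at any time. Inhba was also set against Fst, which encodes the activin-binding antagonist follistatin. Inhba had 0.0169 to 0.0184 reads per read of Fst after 6 h and 0.0863 to 0.0997 after 12 h, and in vehicle the ratio rested on 11 reads of Inhba in all.

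**Figure D3:**
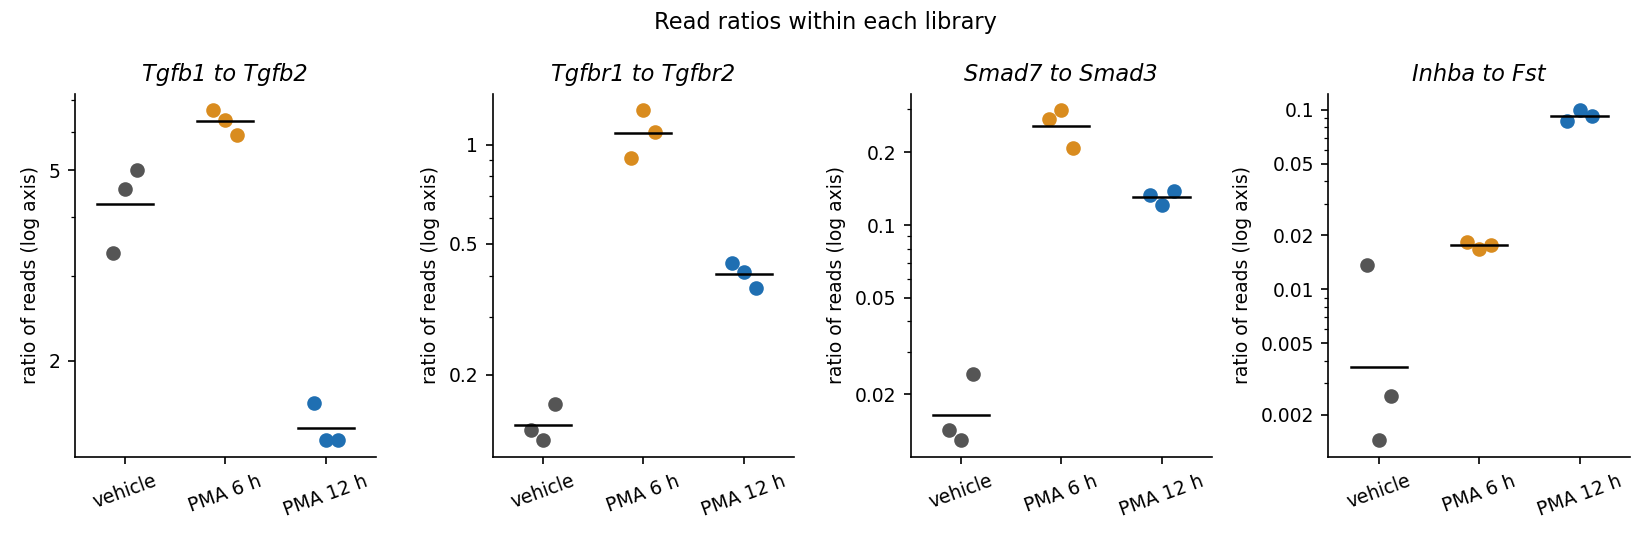
Ratio of the reads of 2 genes within each library (points, log axis) for the ligands, the receptors, Smad7 against Smad3, and Inhba against Fst, with the geometric mean of each group (line). The Tgfb1 to Tgfb2 ratio was lowest at 12 h (1.36 to 1.63), and the Tgfbr1 to Tgfbr2 ratio highest at 6 h (0.908 to 1.27).

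Other genes of the pathway were taken from 6 lists by role, with 58 genes in all, of which 55 were in the tables and 45 abundant enough to test. At 6 h 25 were higher, 15 lower and 5 did not pass, and at 12 h 22 were higher, 11 lower and 12 did not pass. Of all genes 76.8% passed at 6 h and 75.8% at 12 h, so the 12 h count was near the background. Their medians were 0.49 and 0.39 on the log2 scale. Among the other ligand genes, Gdf11, a ligand close to myostatin, fell at 6 h (-1.14 ± 0.29, adjusted p = 0.0018), from 5.98 ± 0.349 to 2.75 ± 1.19 CPM, and stood at 7.80 ± 1.85 CPM at 12 h. Inhbb, the chain of activin B, had many reads in every group, at 219 ± 14.1 CPM in vehicle, 195 ± 17.7 CPM at 6 h and 209 ± 15.6 CPM at 12 h. It did not pass at either time (-0.16 and -0.07). Inha, Inhbe, Mstn and Nodal were too low to test.

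Of 8 tested genes for ligand latency and activation, 6 fell and 1 rose at 6 h, when 39.0% of all genes fell and 37.8% rose. At 12 h 3 fell and 2 rose, when 38.2% of all genes fell and 37.7% rose. Itgb5, an integrin chain whose dimer with the alpha-v chain can bind latent TGF-beta, fell from 115 ± 5.83 to 29.9 ± 1.87 CPM at 6 h (-1.94 ± 0.09, adjusted p = 2.5e-12) and stood at 41.8 ± 2.74 CPM at 12 h. The latent TGF-beta binding proteins Ltbp4 (-0.82 at 6 h and -1.27 at 12 h) and Ltbp2 (-1.29 at 6 h) also fell, though Ltbp2 no longer passed when vehicle replicate 2 (-1.11) or PMA 6 h replicate 3 (-0.99) was left out. Furin, the protease that cleaves the TGF-beta precursors, rose from 127 ± 11.7 to 618 ± 50.7 CPM at 6 h (2.28 ± 0.09, adjusted p = 1.6e-13) and stood at 533 ± 17.9 CPM at 12 h (2.06 ± 0.09, adjusted p = 5.8e-13).

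Among 6 tested receptor and co-receptor genes, 3 rose and 2 fell at 6 h, and 3 rose and 3 fell at 12 h, where 76.8% and 75.8% of all genes passed. Tgfbr3, the co-receptor betaglycan that presents Tgfb2 to Tgfbr2, fell from 40.5 ± 1.98 to 5.48 ± 0.862 CPM at 6 h (-2.88 ± 0.15, adjusted p = 9.5e-12) and stood at 7.87 ± 0.931 CPM at 12 h (-2.36 ± 0.14, adjusted p = 1.1e-10). Eng, the co-receptor endoglin, fell as well (-2.55 at 6 h and -1.60 at 12 h). Its 6 h value was between -3.53 and -1.94 without 1 library, and its 12 h call was lost without vehicle replicate 2 (-1.35) or PMA 12 h replicate 1 (-1.46). The activin receptors Acvr1b (1.19 and 0.92) and Acvr2a (1.01 and 1.02) rose at both times, and Acvr2b rose at 12 h (2.05), a call lost without normalization (1.49), without vehicle replicate 2 (1.65) or without PMA 12 h replicate 2 (1.72).

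Of 4 tested Smads and adaptors, Smad4, the shared partner of the signalling Smads, rose from 66.1 ± 1.82 to 183 ± 8.86 CPM at 6 h (1.47 ± 0.07, adjusted p = 6.8e-12) and stood at 156 ± 8.50 CPM at 12 h. Smad2, the other signalling Smad of this route, did not pass at 6 h (-0.10 ± 0.09, adjusted p = 0.36) and was slightly lower at 12 h (-0.26 ± 0.10, adjusted p = 0.019). Zfyve16, an endosomal protein that binds Smads, fell at 6 h (-1.01).

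Of the inhibitors and feedback genes, all 13 tested passed at 6 h, 10 higher and 3 lower, where 37.8% of all genes were higher and 39.0% lower. At 12 h 9 were higher and 4 did not pass, against 37.7% higher among all genes. Vasn, a membrane protein that traps TGF-beta, rose from 39.2 ± 1.71 to 420 ± 19.4 CPM at 6 h (3.42 ± 0.09, adjusted p = 2.8e-15) and stood at 220 ± 25.7 CPM at 12 h. Bambi, a receptor without a kinase domain, rose by 3.18 at 6 h and 3.56 at 12 h. Fst rose from 32.3 ± 8.36 to 180 ± 13.8 CPM (2.48 ± 0.16, adjusted p = 3e-08) and stood at 122 ± 12.1 CPM at 12 h. The ubiquitin ligases Smurf1 (1.83 and 1.35) and Nedd4l (1.37 and 2.38), Pmepa1 (1.53 and 1.44) and the phosphatase Ppm1a (1.04 and 0.97) rose at both times. Tgif2, the relative of Tgif1, fell at 6 h (-1.77 ± 0.29, adjusted p = 2.7e-05), from 4.85 ± 1.04 to 1.42 ± 0.337 CPM, and stood at 4.77 ± 0.633 CPM at 12 h.

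Genes known from textbooks as targets of TGF-beta went in both directions. The list was not split by the way in which TGF-beta moves each gene, and activity of the pathway was not tested. Of 12 tested, 9 rose and 2 fell at 6 h (37.8% and 39.0% of all genes), and 7 rose and 4 fell at 12 h (37.7% and 38.2% of all genes). Ctgf, a secreted matrix-associated protein, rose from 5.63 ± 1.75 to 11.6 ± 1.72 and 54.3 ± 4.06 CPM (3.26 ± 0.19 at 12 h, adjusted p = 1.2e-10). The cell cycle inhibitors Cdkn2b (2.50 and 3.23) and Cdkn1a (1.62 and 1.49) rose at both times, with Itga5 (1.51 and 1.57), Id1 (2.34 and 1.11) and Id3 (0.95 and 1.40). Col7a1, the collagen of anchoring fibrils (-0.85 and -1.43), and Snai2 (-3.56 and -1.39) fell at both times.

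**Figure D4:**
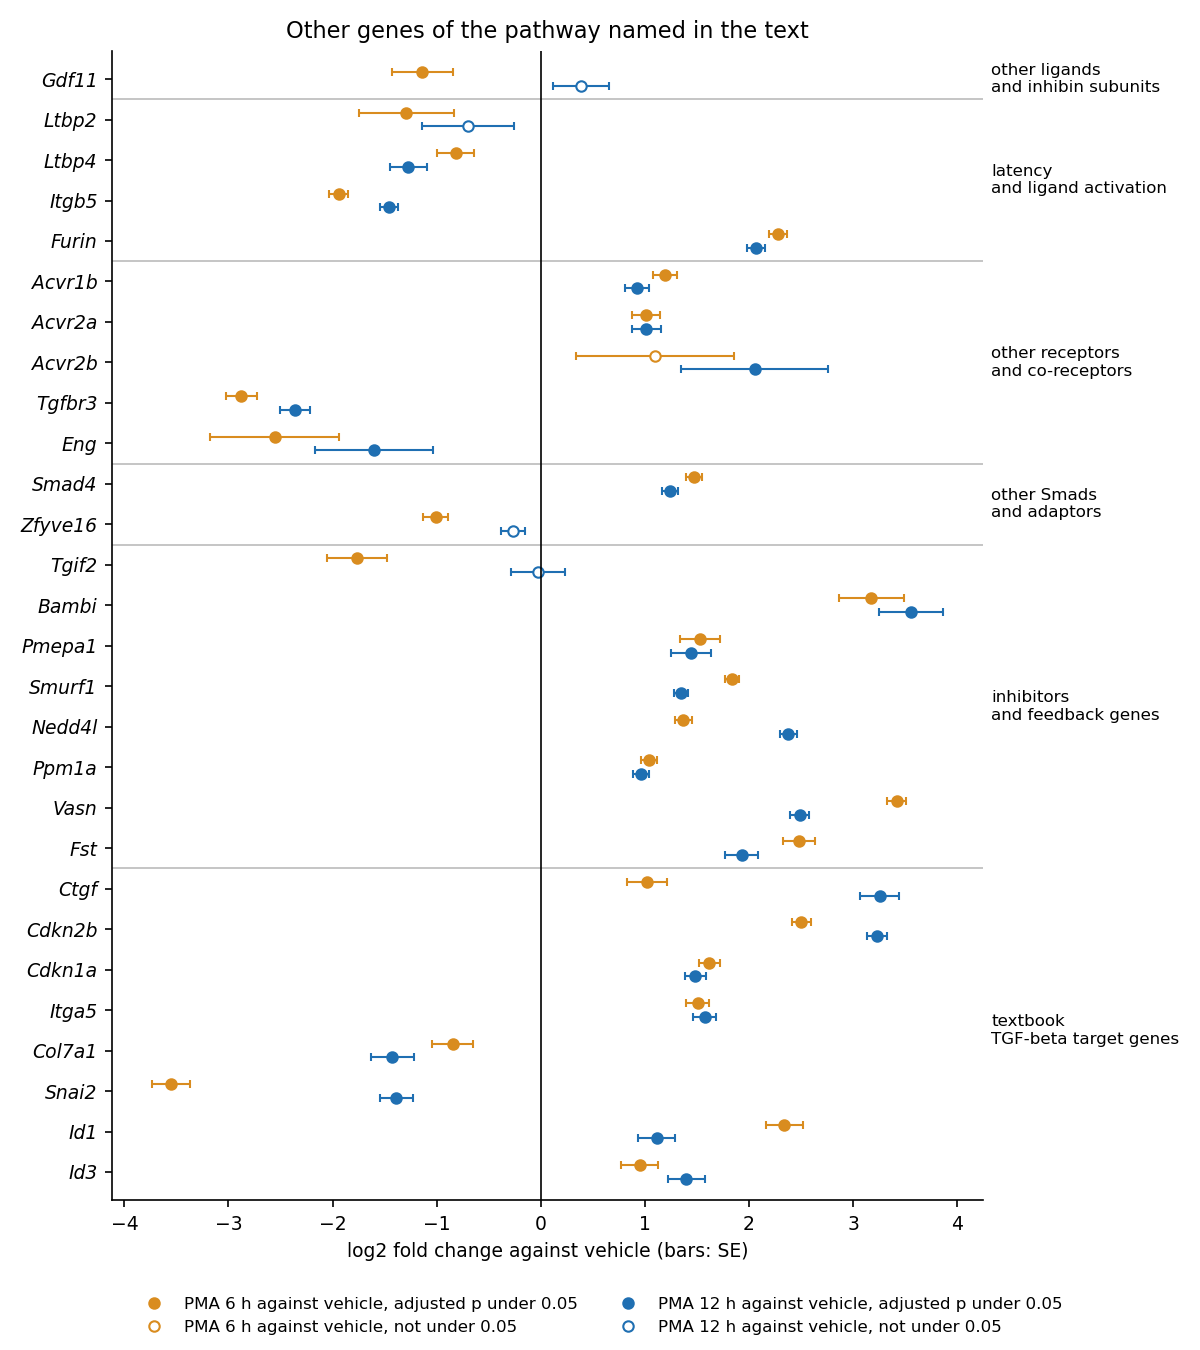
Log2 fold change against vehicle (horizontal axis, bars for the SE) of the 28 other pathway genes named in the text by rule, grouped by role. Filled points had an adjusted p under 0.05. Vasn, Bambi and Fst lie to the right at both times, and Tgfbr3 and Snai2 to the left.

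Genes with the most similar course were found by Pearson's correlation of log2 CPM over the 9 libraries, which share 3 groups, so many genes come close to any member. For Smad7 they were Wipf2, Pim1, Sema7a and Paip2 (r = 0.997 to 0.999), and 1121 of 10127 genes had r over 0.95. Pim1 stood at 5.03, 160 and 117 CPM in vehicle, at 6 h and at 12 h. For Inhba they included Steap4, Hspa1b and Lyrm1 (r = 0.992 to 0.994), and 557 genes had r over 0.95. For Tgfbr2 they were Snai2, Ankrd46, Bcar1 and Gusb (r = 0.992 to 0.994), with 270 genes over 0.95. Snai2, a transcription factor that represses epithelial genes, stood at 35.5, 3.04 and 13.6 CPM.

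Markers of other cell types that make TGF-beta ligands or respond to them were looked at beside these changes. Of 9 fibroblast and pericyte markers, Col1a2, Pdgfrb, Lum and Thy1 had no read in any library, and the summed level was 4.51 to 6.00 CPM in vehicle, 2.06 to 3.82 CPM at 6 h and 1.97 to 3.64 CPM at 12 h. Of 9 immune markers, Ptprc, which leukocytes in general carry, had no read in any library, and the summed level was 26.7 to 29.2, 70.9 to 72.9 and 83.8 to 95.7 CPM. Most of that was Cd68, a lysosomal protein, at 19.6, 69.4 and 85.6 CPM. Cd14 of the same list, a co-receptor for lipopolysaccharide, fell from 7.80 to 1.48 CPM at 6 h and 3.26 CPM at 12 h. The 7 sustentacular and gland markers in the tables summed to at most 0.578 CPM in any library, the 7 respiratory and microvillar markers to at most 3.93 CPM, and the 9 neuronal markers to at most 10.02 CPM. The 8 endothelial and glial markers summed to 0.531 to 1.12 CPM in vehicle, 1.54 to 2.20 CPM at 6 h and 2.11 to 4.42 CPM at 12 h. Kdr of that list stood at 0, 0.632 and 2.50 CPM. The part of the cells behind these markers in the changes above was not tested.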

How the data were processed

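As deposited, each of the 9 libraries has a table of read counts per gene. Per the submitters' processing notes in the labels, STAR 2.7.5b and the rn6 genome were used. No source used here names the gene annotation. The unstranded count column was used, since the strand columns each held about the same reads (49.8% to 50.3% in the first), and the 4 summary lines were left out, which leaves 67.8% to 71.3% of reads in genes. A deposited table of normalized values was not used: its 9 columns carry codes that the sample titles do not hold.

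The tests used edgeR 4.0.16 (R 4.3.3), filterByExpr at a minimum count of 10 (10128 of 17315 genes), TMM scaling and a robust quasi-likelihood fit to all 9 libraries with group as the only term. Adjusted p-values are Benjamini-Hochberg over the 10128 genes, and SE were derived from the F statistics. Libraries of a group were taken as its replicates. The script was tested on simulated data. In these only a small part of the genes was changed, unlike in the libraries, so that test cannot vouch for the scaling here. Alternatives used other scalings, no filter, DESeq2 1.42.0, limma-voom (limma 3.58.1), only the groups compared, a replicate block, each library left out and, added later, a test against a 1.5-fold change.

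The members, lists and tests were chosen with earlier results of these data known. Of the other pathway genes, those were named that passed with at least a 2-fold change at 6 h or 12 h and with libraries that did not overlap vehicle; Inhbb and Smad2 were named in addition after their values were seen, and a few genes that met a rule are not reported here. Floors cover counting error only.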

Additional observations from a re-analysis of the deposited data

Results flagged for a closer look

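Levels differed between 6 h and 12 h of PMA in 7 of the 8 tested members, by the direct test of both times (edgeR, adjusted p under 0.05). Of all genes 51.1% passed. No vehicle library was labelled with these times, so PMA and time in culture cannot be told apart. Of the 28 named pathway genes 16 passed, but these were picked for their change against vehicle in the same libraries. Their share therefore cannot be set beside that background. Of all 45 tested pathway genes 26 passed. The members that were higher at 12 h than at 6 h were Inhba (log2 fold change 1.85), Tgfb2 (1.65), Tgfbr2 (1.07) and Smad3 (0.45), and those that were lower were Smad7 (-0.54), Tgfb1 (-0.48) and Tgfbr1 (-0.34).

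Among the other pathway genes, the higher ones were Ctgf (2.23), Snai2 (2.17), Tgif2 (1.74), Gdf11 (1.53), Nedd4l (1.01), Zfyve16 (0.74), Cdkn2b (0.73), Tgfbr3 (0.51) and Itgb5 (0.48). The lower ones were Id1 (-1.23), Vasn (-0.93), Col7a1 (-0.58), Fst (-0.55), Smurf1 (-0.49), Smad4 (-0.23) and Furin (-0.21). Of these, Furin, Smad4, Col7a1 and Tgfbr3 lost the call when single libraries were left out: the Furin call without vehicle replicate 2 or any 1 of 5 PMA libraries (all but PMA 6 h replicate 3), Smad4 without replicate 3 of either time, Col7a1 without 12 h replicate 1 or 2 or replicate 2 of 6 h, and Tgfbr3 without PMA 12 h replicate 2. The calls of Tgfbr3 and Col7a1 were also lost with limma-voom (0.51 and -0.56).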

How the results depend on the processing

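None of the 8 tested members changed direction in any of the 3 comparisons under any alternative tried. The split of calls against vehicle rests on the scaling. Relative to TMM the median gene shifted by -0.26 at 6 h and -0.27 at 12 h with upper-quartile scaling. Without normalization it shifted by -0.54 and -0.58. Over all genes, 0 calls changed direction at either time with upper-quartile scaling, and 261 at 6 h and 368 at 12 h without normalization. At 6 h 3831 genes were higher and 3945 lower with TMM, 3023 and 4837 with upper-quartile scaling, and 2277 and 5855 without normalization. At 12 h 3818 were higher and 3864 lower with TMM, 2963 and 4827 with upper-quartile scaling, and 2120 and 6021 without normalization. Against a 1.5-fold change, the counts were 2401 and 2461 at 6 h, 2351 and 2376 at 12 h, and 661 and 609 from 6 h to 12 h. That test (edgeR's glmTreat) called 0 members lower at 12 h (1, Tgfbr2, at an unadjusted p under 0.05) and 0 lower from 6 h to 12 h (0 unadjusted).

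No pairing by replicate number was seen. The correlation of deviations was -0.115 to 0.027 over 9 same-numbered pairs and -0.072 to 0.087 over 18 differently numbered pairs. With 3 libraries per group this cannot show that same-numbered libraries share no culture or batch, and the labels do not say. With a replicate block 3765 genes were higher and 3885 lower at 6 h, 3742 and 3797 at 12 h, and 2452 and 2503 from 6 h to 12 h, and no call of a member was lost. Depth limited Tgfb3, with at most 16 reads in a library, and the vehicle level of Inhba, with at most 8. Reads were also few for some named pathway genes, such as Acvr2b (15 over the vehicle libraries), Eng (17 at 6 h), Ltbp2 (50 at 6 h) and Bambi (57 in vehicle).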
